A study of Rattus norvegicus with 12 samples.

Results

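The respiratory chain genes encode the enzyme complexes in the inner mitochondrial membrane that move electrons to oxygen and make ATP. They were followed here in the hearts of rats after ischaemia and reperfusion. All probe sets of a rat expression array were taken that the platform annotation gives to a single gene whose symbol starts with Nduf, Sdha to Sdhd, Uqcr, Cox4i, Cox5, Cox6, Cox7, Cox8 or Atp5, or is Cyc1 or Cycs. This found 95 probe sets of 89 genes, out of 12789 single-gene probe sets of 10412 genes, and the brightest probe set stood for a gene that had several. The 89 genes comprised 34 subunits of complex I, 4 of complex II, 8 of complex III with its cytochrome c1, 16 of complex IV with Ndufa4, and 15 of complex V. The other genes were 5 assembly factors of complex I, 4 of complex II, the ATP synthase inhibitor Atp5if1, the Ndufa4 paralog Ndufa4l2, and a transcript annotated as a Cox6c pseudogene. Of the 89 genes, 88 passed the filter on dim probe sets. Cox6b2, the testis form of a complex IV subunit, did not, with signals between 11.5 and 218.4, and no probe set carried Cycs as its only symbol.

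Total RNA of the ventricle was hybridised to 12 arrays of 4 groups with 3 arrays each. The IR rats had the left anterior descending coronary artery (LAD) tied for 30 min and then reperfused for 7 d or for 2 d. The sham rats of each day went through surgery with no ligation. The sample titles name a 2 d sham group where the series' design text names the 7 d sham group a second time, and the titles were followed. The labels give neither the strain, sex and age of the rats nor the side, region or infarct position of the ventricle sampled, and an array is named below by its group and its rat's number. Signals of the same probe set were compared between arrays.

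Complex I oxidises NADH and complex II oxidises succinate, and both hand electrons to ubiquinone. Complex III passes them on to cytochrome c, complex IV reduces oxygen with them, and complexes I, III and IV pump protons as they work. Complex V, the ATP synthase, lets the protons back and makes ATP. Complexes I, III, IV and V also hold subunits encoded by mitochondrial DNA, which the choice of genes did not take. Heart muscle depends on oxidative ATP and is packed with mitochondria.

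At 7 d the chain was lower as a whole, in every complex, and no gene was called higher. In 7 d IR hearts against 7 d sham hearts 57 of the 88 genes fell (adjusted p under 0.05), against a background of 5.84% of all 10527 probe sets tested. That background is mostly dimmer, since 74 of the 89 genes had a mean signal above the 90th percentile of all probe sets. The median log2 change of the 88 genes was -0.44, a change of -26.3%, and the median over all probe sets tested was 0.01. All 3 IR arrays lay below all 3 sham arrays in 72 genes, a pattern that 15.8% of all probe sets showed. Log2 changes here are of the signal plus 195, and adjusted p-values come from limma over all probe sets tested.

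At 2 d the direction was the same, but few genes passed the test. In 2 d IR hearts against 2 d sham hearts 2 of the 88 genes fell, both of complex I, against a background of 0.589%. The change was below 0 in 86 of the 88, with a median of -0.32, a change of -19.7%, against 0.00 over all probe sets. All 3 IR arrays lay below all 3 sham arrays in 54 genes, against 12.5% of all probe sets.

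Every complex was lower at 7 d. Over all probe sets tested 5.84% were called lower on that day, and the median log2 change was 0.01. In complex I 27 of 34 subunits fell, with a median log2 change of -0.48, and in complex II 3 of 4, with a median of -0.43. In complex III 7 of 8 fell, with a median of -0.49, in complex IV 8 of 15 tested, with a median of -0.40, and in complex V 10 of 15, with a median of -0.43. Of the 9 assembly factors among the 89 genes 2 were called, with a median of -0.27. At 2 d the medians were -0.35 for complex I, -0.30 for complex II, -0.30 for complex III, -0.28 for complex IV, -0.33 for complex V and -0.21 for the assembly factors. Whether one complex, or the assembly factors, differed from the others was not tested.

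Some arrays stood apart from the rest of their group. The mean log2 signal of the 88 genes, relative to the sham arrays of the day, was -0.48, -0.38 and -0.38 in the 7 d IR hearts 44, 47 and 48, against -0.13, -0.02 and 0.14 in the 7 d sham hearts 80, 81 and 82. It was -0.48, -0.18 and -0.24 in the 2 d IR hearts 69, 73 and 76, against -0.01, 0.05 and -0.04 in the 2 d sham hearts 71, 72 and 74. The IR and sham arrays did not overlap on either day. Rat 69 had the lowest signal of its group in 77 of the 88 genes, and rat 82 the highest of its group in 75.

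Without rat 82, 5 of the 88 genes were called lower at 7 d, against 0.518% of all probe sets in that fit. They were Ndufv3 (adjusted p = 0.0239), Cox5a (0.0282), Ndufs8 (0.0353), Ndufs1 (0.0378) and Uqcrc1 (0.0378). By complex this was 3 of 34 in complex I, 0 of 4 in complex II, 1 of 8 in complex III, 1 of 15 in complex IV and 0 of 15 in complex V, with medians of -0.39, -0.35, -0.42, -0.32 and -0.38 in that order of complexes. Every other 7 d call in these 88 genes named below was lost without that array. Without rat 69 limma called none of the 88 at 2 d, and it called 1 of 10460 lower over all probe sets. The medians of complexes I to V then lay between -0.24 and -0.18.

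**Figure D1:**
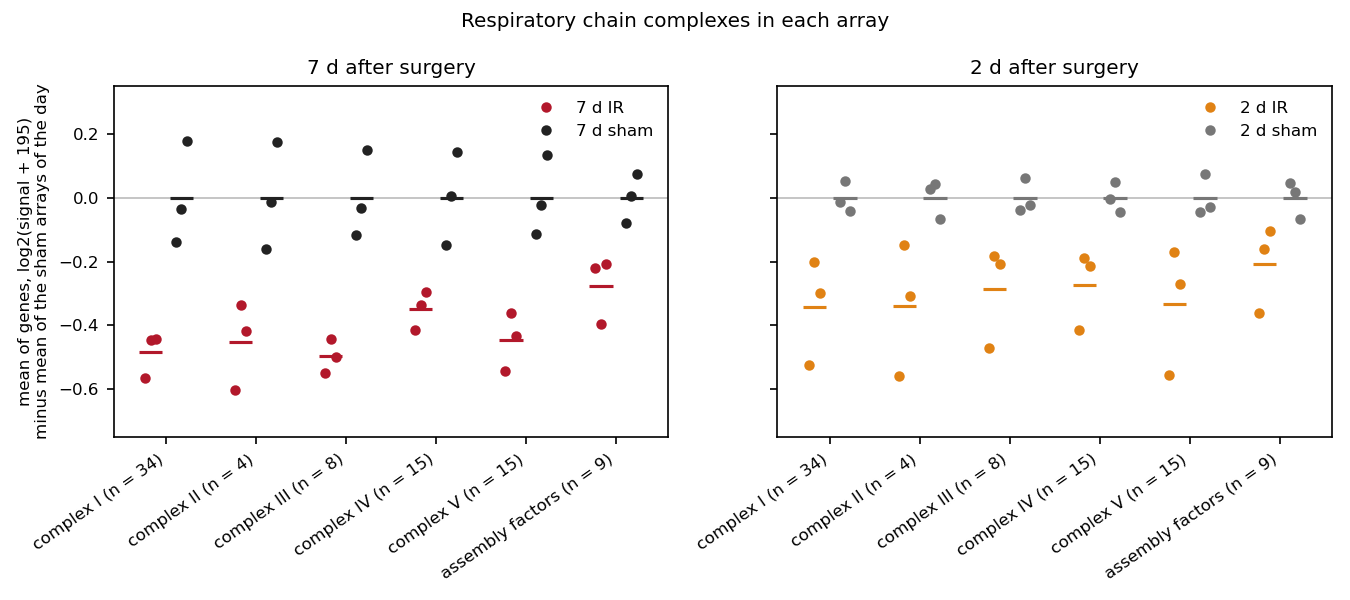
Mean log2(signal + 195) of the genes of each complex in each array, minus the mean of the sham arrays of the same day, at 7 d (left) and 2 d (right). Points are arrays and lines are group means; all 5 complexes lie lower in the IR hearts on both days, the 7 d sham array of rat 82 sits above the other sham arrays and the 2 d IR array of rat 69 below the other 2 d IR arrays.

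Many nuclear respiratory genes are known to be driven by shared factors, among them NRF1, GABPA and other ETS factors, the oestrogen-related receptors (ERR) and YY1. Promoters from 250 bases before to 50 bases after the start of transcription (RefSeq, build GRCr8) were found for 80 of the 89 genes and searched on both strands for GCGCATGCG (NRF1), CCGGAAGT (ETS), TCAAGGTCA (ERR) and AAGATGGCG (YY1). At least 1 of the 4 runs of letters was present in 33.8% of the 80 promoters, 15.2% of the promoters of 6444 genes tested on the array and 7.53% of all 27457 promoters of the table. The NRF1 letters were in 8.75% of the 80, 3.40% of the tested and 1.66% of all promoters. The ETS letters were in 10%, 8.40% and 4.01% of the same 3 sets, the ERR letters in 2.50%, 0.19% and 0.41%, and the YY1 letters in 13.8%, 4.17% and 1.93%. The promoters of the 3 sets differed in base composition, with a median GC content of 56.0%, 61.3% and 52.3%.

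The median log2 change at 7 d was -0.44 in the 27 tested genes with at least 1 of the motifs (range -0.64 to 0.00) and -0.45 in the 52 without (range -0.91 to 0.56). These values were not tested against each other. The promoters below are shown because their genes carry results described further on: 4 genes that fell at 7 d (Ndufs1, Uqcrc1, Atp5po and Cox8b), a complex I gene with a change near 0 (Ndufa11), and the ubiquitous partner of Cox8b (Cox8a). Each is written 5′ to 3′ along the gene, and capitals mark the letters searched.
Ndufs1 (chr9:72073556-72073855, minus strand): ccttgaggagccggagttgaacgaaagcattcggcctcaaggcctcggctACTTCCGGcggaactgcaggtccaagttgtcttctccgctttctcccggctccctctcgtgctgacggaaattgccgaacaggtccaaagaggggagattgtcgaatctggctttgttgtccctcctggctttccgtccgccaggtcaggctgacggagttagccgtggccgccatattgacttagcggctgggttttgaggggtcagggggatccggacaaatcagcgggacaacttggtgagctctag
Ndufa11 (chr9:1637364-1637663, plus strand): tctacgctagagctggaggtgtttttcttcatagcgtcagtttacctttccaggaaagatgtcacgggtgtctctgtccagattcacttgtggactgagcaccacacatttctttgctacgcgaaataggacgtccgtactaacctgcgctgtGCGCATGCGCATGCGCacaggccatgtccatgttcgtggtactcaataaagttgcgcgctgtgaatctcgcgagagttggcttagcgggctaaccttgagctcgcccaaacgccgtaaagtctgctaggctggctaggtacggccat
Uqcrc1 (chr8:118467973-118468272, plus strand): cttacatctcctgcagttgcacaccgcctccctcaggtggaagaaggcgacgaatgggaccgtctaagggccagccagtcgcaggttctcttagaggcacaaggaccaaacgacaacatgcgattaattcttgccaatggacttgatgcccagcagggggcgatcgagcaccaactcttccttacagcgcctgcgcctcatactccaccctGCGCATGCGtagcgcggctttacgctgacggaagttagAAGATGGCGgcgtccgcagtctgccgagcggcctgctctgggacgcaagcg
Atp5po (chr11:44657434-44657733, minus strand): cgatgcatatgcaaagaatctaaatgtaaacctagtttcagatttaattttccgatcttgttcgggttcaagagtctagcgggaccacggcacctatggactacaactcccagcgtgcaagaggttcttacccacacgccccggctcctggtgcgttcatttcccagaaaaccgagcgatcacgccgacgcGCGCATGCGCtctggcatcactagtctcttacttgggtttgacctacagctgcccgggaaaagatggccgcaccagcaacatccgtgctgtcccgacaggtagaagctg
Cox8b (chr1:205408224-205408523, minus strand): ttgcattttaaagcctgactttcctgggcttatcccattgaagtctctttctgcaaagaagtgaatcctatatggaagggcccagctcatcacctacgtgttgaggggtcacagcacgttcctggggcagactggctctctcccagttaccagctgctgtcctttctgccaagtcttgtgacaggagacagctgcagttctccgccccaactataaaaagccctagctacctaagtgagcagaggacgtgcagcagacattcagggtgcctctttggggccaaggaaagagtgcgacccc
Cox8a (chr1:213833574-213833873, minus strand): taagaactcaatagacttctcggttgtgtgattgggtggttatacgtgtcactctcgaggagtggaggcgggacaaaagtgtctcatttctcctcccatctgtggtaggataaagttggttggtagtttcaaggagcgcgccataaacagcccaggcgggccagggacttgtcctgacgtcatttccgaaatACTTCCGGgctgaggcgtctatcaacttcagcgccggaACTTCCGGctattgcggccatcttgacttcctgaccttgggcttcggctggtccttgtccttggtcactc
Ndufa11, with a 7 d change near 0, and Atp5po, lower at 7 d, both hold the NRF1 letters on both strands, in an overlapping run. Uqcrc1 holds the NRF1 and the YY1 letters and Ndufs1 the ETS letters on the reverse strand. Cox8a holds the ETS letters at 2 places. Cox8b holds none of the 4, which says only that these letters are not in this window. A match is a description of the sequence and not a site shown to be bound.

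Within complex I, the peripheral arm that takes electrons from NADH to ubiquinone held several of the largest falls. Of its catalytic core 6 nucleus-encoded subunits had a single-gene probe set, and 5 of these fell at 7 d, with a median of -0.54. Ndufs1, the iron-sulfur protein that is the largest subunit, read 9466, 10079 and 10383 in 7 d IR hearts, against 14190, 14384 and 17945 in 7 d sham hearts. Every IR array lay below every sham array, and the log2 change was -0.62 (SE 0.11, adjusted p = 0.0079). Ndufs1 had also fallen at 2 d, with 10584, 12706 and 11972 in 2 d IR hearts, against 16256, 17539 and 17501 in 2 d sham hearts. The groups were again apart (log2 change -0.54, SE 0.11, adjusted p = 0.0285).

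Ndufs8 and Ndufs7 carry the iron-sulfur clusters nearest to the ubiquinone pocket. Ndufs8 read 7941, 9393 and 8076 in 7 d IR hearts, against 16603, 11822 and 15614 in 7 d sham hearts, and Ndufs7 read 12942, 13474 and 12381 in 7 d IR hearts, against 17009, 17837 and 25355 in 7 d sham hearts. Neither pair of groups overlapped. The log2 change was -0.77 for Ndufs8 (SE 0.13, adjusted p = 0.0068) and -0.60 for Ndufs7 (SE 0.14, adjusted p = 0.0170). At 2 d the changes of -0.43 and -0.34 in the same genes did not pass (adjusted p = 0.0917 and 0.181).

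The other core subunits were Ndufv1, which binds NADH and FMN, its iron-sulfur partner Ndufv2, and Ndufs3. Ndufv1 was the core subunit not called at 7 d: it read 17512, 22431 and 20685 in 7 d IR hearts, against 23449, 22294 and 30031 in 7 d sham hearts. One IR array lay above the lowest sham array (log2 change -0.31, adjusted p = 0.153). Ndufv2 and Ndufs3 fell by 0.45 and 0.48 on the log2 scale (adjusted p = 0.0228 and 0.0297).

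Among the accessory subunits of complex I the largest fall at 7 d was that of Ndufv3, a small protein of the NADH-binding module. It read 14680, 15587 and 14441 in 7 d IR hearts, against 22345, 24166 and 31368 in 7 d sham hearts. The 3 IR arrays were close together and below all sham arrays (log2 change -0.78, SE 0.13, adjusted p = 0.00548). At 2 d it read 17272, 22075 and 20942 in IR hearts, against 27954, 30062 and 27196 in sham hearts. These groups did not overlap either, and the change of -0.50 was just outside the threshold (adjusted p = 0.0510).

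Ndufab1, the mitochondrial acyl carrier protein that is also a complex I subunit, was the other gene called at 2 d. It read 18404, 20742 and 18852 in 7 d IR hearts, against 26866, 28123 and 33767 in 7 d sham hearts. At 2 d it read 20748, 26459 and 26376 in IR hearts, against 32646, 38582 and 32259 in sham hearts. The groups were apart on both days, with a log2 change of -0.60 at 7 d (SE 0.12, adjusted p = 0.0102) and -0.49 at 2 d (SE 0.12, adjusted p = 0.0484). Ndufa12, another accessory subunit, had a change of -0.39 at 2 d that did not pass.

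The 7 complex I subunits not called at 7 d were Ndufa5, Ndufb7, Ndufb9, Ndufs4, Ndufb4, Ndufv1 and Ndufa11. For 6 of these the log2 change lay between -0.61 and -0.31. Ndufa5 had a change of -0.61 with a wide error (adjusted p = 0.0556). Ndufa11, an accessory subunit of the membrane arm, stood alone near 0: it read 11659, 11232 and 13764 in 7 d IR hearts, against 10745, 11295 and 14849 in 7 d sham hearts. The groups overlapped fully (adjusted p = 1.00).

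Complex II is also the citric acid cycle enzyme succinate dehydrogenase. Sdha, its flavoprotein, read 20112, 23847 and 21191 in 7 d IR hearts, against 26097, 29624 and 36114 in 7 d sham hearts. Sdhb, its iron-sulfur protein, read 22627, 30468 and 27370 in 7 d IR hearts, against 34932, 40260 and 46745 in 7 d sham hearts. Both genes were separated between the groups, with log2 changes of -0.48 for Sdha (SE 0.14, adjusted p = 0.0361) and -0.60 for Sdhb (SE 0.15, adjusted p = 0.0196).

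Sdhc and Sdhd anchor the enzyme in the membrane. Sdhc read 19709, 24132 and 22548 in 7 d IR hearts, against 27348, 28971 and 30448 in 7 d sham hearts (log2 change -0.39, SE 0.11, adjusted p = 0.0358). Sdhd read 18928, 20439 and 21786 in 7 d IR hearts, against 23438, 25367 and 28992 in 7 d sham hearts. Its groups did not overlap either, but the change of -0.34 did not pass (adjusted p = 0.0762), while a dimmer second probe set of Sdhd did (log2 change -0.57, adjusted p = 0.0222). At 2 d no complex II gene passed, and Sdhb had the largest difference, with 25289, 36572 and 33590 in 2 d IR hearts, against 42638, 45718 and 45031 in 2 d sham hearts (log2 change -0.50, adjusted p = 0.0757).

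Of the 8 complex III subunits all but cytochrome c1 were called at 7 d. Uqcrc1, a core protein on the matrix side, read 24376, 28188 and 25936 in 7 d IR hearts, against 37271, 40967 and 43264 in 7 d sham hearts. The highest IR array was well below the lowest sham array (log2 change -0.63, SE 0.11, adjusted p = 0.00764). Its partner Uqcrc2 read 19494, 20622 and 16523 in 7 d IR hearts, against 24989, 28008 and 33207 in 7 d sham hearts. These groups were apart as well (log2 change -0.60, SE 0.13, adjusted p = 0.0117).

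The small subunits followed. Uqcr10 read 32384, 31890 and 31119 in 7 d IR hearts, against 41118, 48085 and 52094 in 7 d sham hearts, and Uqcrq, which sits beside cytochrome b, read 21760, 21422 and 21907 in 7 d IR hearts, against 29092, 29734 and 36761 in 7 d sham hearts. In both genes the 3 IR arrays differed little from each other and lay below all sham arrays (log2 changes -0.56 and -0.54, SE 0.11 and 0.12, adjusted p = 0.00946 and 0.0129). Uqcrfs1, the Rieske iron-sulfur protein, fell by 0.37 (adjusted p = 0.0396), Uqcr11 by 0.45 and Uqcrh by 0.42 on the log2 scale.

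Cyc1 encodes cytochrome c1, the subunit that passes the electron to cytochrome c. It read 18730, 27658 and 23540 in 7 d IR hearts, against 35182, 26585 and 31556 in 7 d sham hearts. The array of rat 47 lay above that of rat 81, and the change of -0.42 did not pass (adjusted p = 0.0569). At 2 d no complex III gene passed, and Uqcrc1 had the largest difference, with 29572, 38695 and 37124 in 2 d IR hearts, against 42746, 49353 and 44611 in 2 d sham hearts (log2 change -0.38, adjusted p = 0.0772).

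Complex IV held both the largest fall among the 88 genes and subunits with changes near 0. Cox7a1, the heart and muscle isoform of subunit 7a, read 2741, 4193 and 3982 in 7 d IR hearts, against 5341, 7749 and 7846 in 7 d sham hearts. The groups were apart, and the log2 change was -0.91 (SE 0.20, adjusted p = 0.0130). At 2 d it read 3485, 4414 and 5652 in IR hearts, against 7663, 5979 and 6380 in sham hearts (log2 change -0.56, SE 0.20, adjusted p = 0.123).

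Cox5a, a nucleus-encoded subunit on the matrix side, read 1686, 1100 and 1220 in 7 d IR hearts, against 2461, 2439 and 2546 in 7 d sham hearts. All sham arrays were close together and above the IR arrays (log2 change -0.83, SE 0.14, adjusted p = 0.00618). A second probe set that the annotation gives to Cox5a and to LOC100361008 together read 34049, 35172 and 33144 in 7 d IR hearts, against 42275, 54760 and 56192 in 7 d sham hearts. It fell by 0.57 on the log2 scale (adjusted p = 0.0118).

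Several complex IV subunits exist as a heart isoform and a form found in most tissues, and at 7 d the 3 heart isoforms were called. Of their partners Cox6a1 and Cox8a were not, while Cox7a2, read from a probe set that also matches Cox7a2l2, was (log2 change -0.39, adjusted p = 0.0270). Without rat 82 the heart isoforms were no longer called: the changes were -0.81 for Cox7a1 (adjusted p = 0.0640), -0.42 for Cox6a2 (adjusted p = 0.0753) and -0.40 for Cox8b (adjusted p = 0.193), and Cox8b kept its call in 10 of 21 alternatives. Cox6a2, the heart form, read 38567, 43470 and 43553 in 7 d IR hearts, against 56452, 55725 and 60654 in 7 d sham hearts (log2 change -0.46, SE 0.11, adjusted p = 0.0168). Cox6a1, the ubiquitous form, read 12708, 13382 and 13260 in 7 d IR hearts, against 13582, 11426 and 16214 in 7 d sham hearts. Its groups overlapped (log2 change -0.05, SE 0.13, adjusted p = 0.825), and the sign of that small change turned under quantile normalisation, array weights and without rat 82.

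Cox8b and Cox8a are the next pair. Cox8b, the heart form, read 28643, 28782 and 27795 in 7 d IR hearts, against 32043, 44081 and 53062 in 7 d sham hearts. The groups were apart with a wide sham spread (log2 change -0.57, SE 0.17, adjusted p = 0.0437). Cox8a read 20399, 27235 and 26872 in 7 d IR hearts, against 23581, 26596 and 26675 in 7 d sham hearts. These overlapped (log2 change -0.05, SE 0.12, adjusted p = 0.814), and the sign turned under quantile normalisation and without rat 44.

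The difference of heart form minus ubiquitous form was then taken within each array and compared over arrays. At 7 d the difference was lower in IR than in sham hearts by 0.41 log2 units for Cox6a2 and Cox6a1, by 0.51 for Cox7a1 and Cox7a2, and by 0.51 for Cox8b and Cox8a. The first 2 pairs did not overlap between IR and sham arrays and the third did. The exact two-sided permutation p was 0.10, 0.10 and 0.20 (adjusted over 6 tests, 0.30 each), and 3 arrays against 3 cannot give less than 0.10. At 2 d the same differences were lower in IR by 0.04, 0.33 and 0.17 (exact permutation p = 0.90, 0.30 and 0.20). With 3 arrays a group, the lower heart isoforms relative to the ubiquitous ones are a description that this test could not call.

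**Figure D2:**
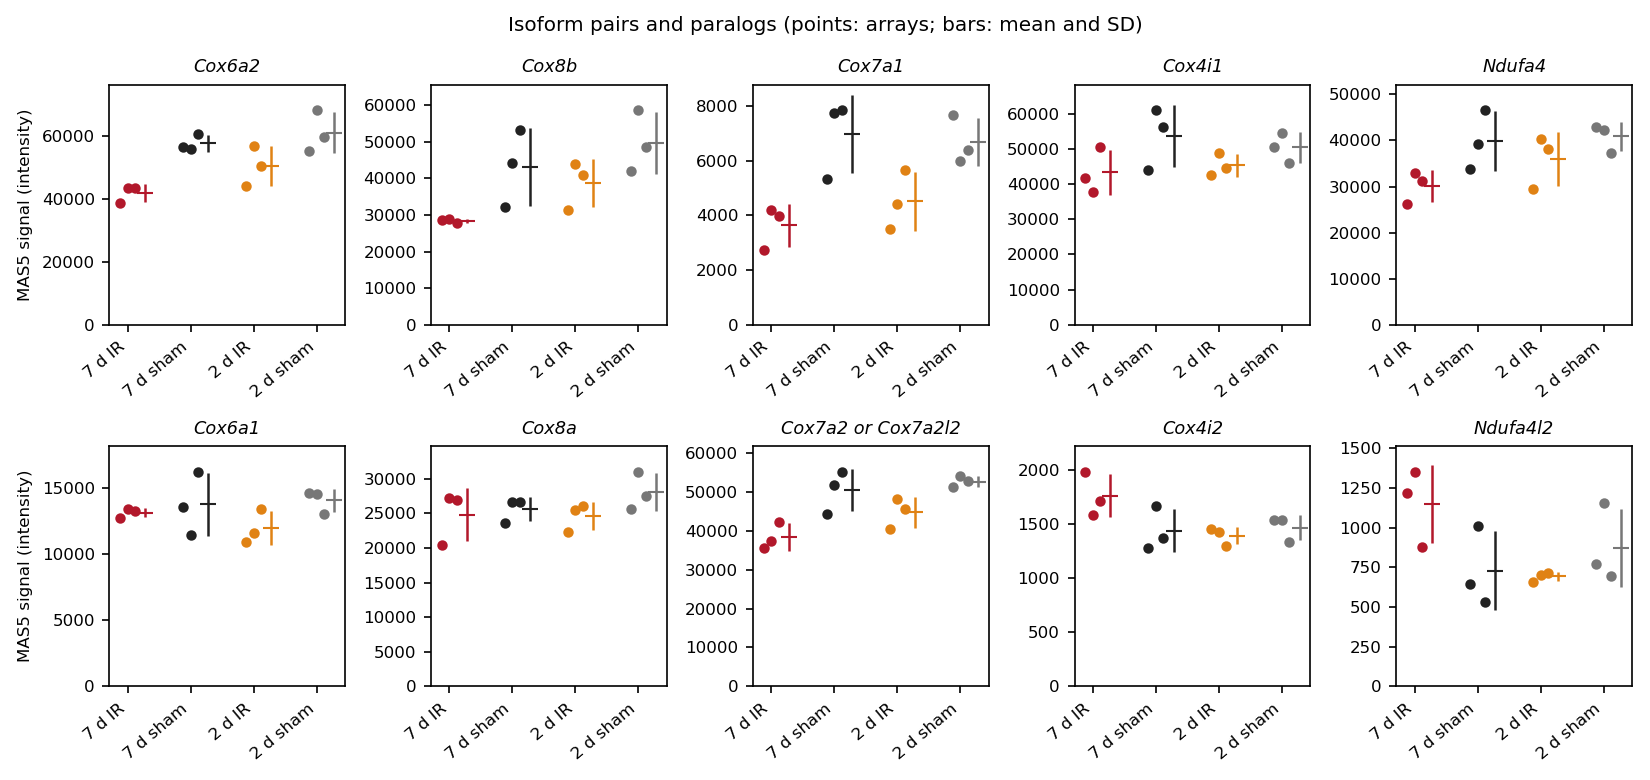
Signal of complex IV isoforms and paralogs in each array by group; points are arrays, bars are group mean and SD (n = 3), and every panel has its own axis from 0. Heart-type Cox6a2, Cox7a1 and Cox8b lie lower in 7 d IR than in 7 d sham arrays with no overlap. Of the ubiquitous forms Cox6a1 and Cox8a overlap, while the probe set of Cox7a2 or Cox7a2l2 also lies lower with no overlap.

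Among the remaining complex IV genes Cox7c fell, with 27479, 29325 and 30316 in 7 d IR hearts, against 35763, 43684 and 48934 in 7 d sham hearts (log2 change -0.55, adjusted p = 0.0131). Cox6b1, Cox5b and Cox7b also fell. Cox4i1, the main form of subunit 4, read 41758, 37680 and 50394 in 7 d IR hearts, against 43882, 60932 and 56162 in 7 d sham hearts (log2 change -0.31, adjusted p = 0.143). Cox4i2, the form found mostly in lung and linked to low oxygen, read 1988, 1592 and 1721 in 7 d IR hearts, against 1285, 1669 and 1371 in 7 d sham hearts. Both subunit 4 forms overlapped between groups, and the Cox4i2 change of 0.26 did not pass (adjusted p = 0.199).

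Others of complex IV not called at 7 d were Cox6c, with a log2 change of -0.30 (adjusted p = 0.0608), Ndufa4, once counted with complex I, with -0.40 (adjusted p = 0.0783), and Cox7a2l, which helps complexes III and IV associate, with 0.15. Ndufa4l2, a paralog of Ndufa4 known as a gene induced by low oxygen, was the single gene of the 88 with an unadjusted p under 0.05 in the upward direction at 7 d, against 15.0% of all probe sets. It read 1220, 1351 and 875.4 in 7 d IR hearts, against 642.5, 1009 and 533.8 in 7 d sham hearts. The lowest IR array lay below the highest sham array (log2 change 0.56, SE 0.21, adjusted p = 0.0923).

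In complex V the fall reached the F1 head, the stalks and the membrane part. Atp5po, the OSCP subunit that ties the head to the outer stalk, read 26676, 23643 and 23626 in 7 d IR hearts, against 34199, 35781 and 46174 in 7 d sham hearts. The groups were apart (log2 change -0.64, SE 0.14, adjusted p = 0.0125). At 2 d Atp5po read 25739, 35892 and 35798 in IR hearts, against 42809, 48134 and 45106 in sham hearts, and the change of -0.49 did not pass (adjusted p = 0.0671).

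Of the 5 subunits of the F1 head and central stalk 4 fell at 7 d, with a median of -0.52. Atp5f1c, the rotating gamma subunit, read 30893, 33654 and 33972 in 7 d IR hearts, against 41442, 48062 and 57198 in 7 d sham hearts (log2 change -0.56, SE 0.13, adjusted p = 0.0181). Atp5f1d, the delta subunit, read 21660, 24166 and 18146 in 7 d IR hearts, against 31730, 28484 and 33816 in 7 d sham hearts (log2 change -0.56, adjusted p = 0.0173). Neither gene's groups overlapped. Atp5f1a, the alpha subunit, read 34367, 40964 and 38539 in 7 d IR hearts, against 46224, 49175 and 64578 in 7 d sham hearts (log2 change -0.48, adjusted p = 0.0343). Atp5f1b, the catalytic beta subunit, read 51750, 58029 and 50974 in 7 d IR hearts, against 60274, 66353 and 69373 in 7 d sham hearts. Its groups were apart too, but the change of -0.29 did not pass (adjusted p = 0.119).

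In the membrane part Atp5mg, subunit g, read 24551, 25540 and 27938 in 7 d IR hearts, against 30938, 42489 and 40874 in 7 d sham hearts (log2 change -0.54, adjusted p = 0.0251). Atp5mc3, whose product forms the proton-carrying c-ring, read 34841, 40341 and 39115 in 7 d IR hearts, against 46691, 51025 and 54100 in 7 d sham hearts (log2 change -0.41, SE 0.10, adjusted p = 0.0216). All 15 subunits of complex V had the 3 IR arrays below the 3 sham arrays at 7 d, a pattern that 15.8% of all probe sets showed. The 5 not called (Atp5me, Atp5pf, Atp5mk, Atp5pb and Atp5f1b) were among them. Atp5if1, which blocks ATP synthase when it runs backwards in ischaemia, was not part of this pattern by its brightest probe set. It read 5183, 5782 and 6738 in 7 d IR hearts, against 5645, 6527 and 7404 in 7 d sham hearts, with overlap and a change of -0.14. A dimmer probe set of Atp5if1 also overlapped, and its larger change of -0.56 did not pass (limma, adjusted p = 0.192).

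**Figure D3:**
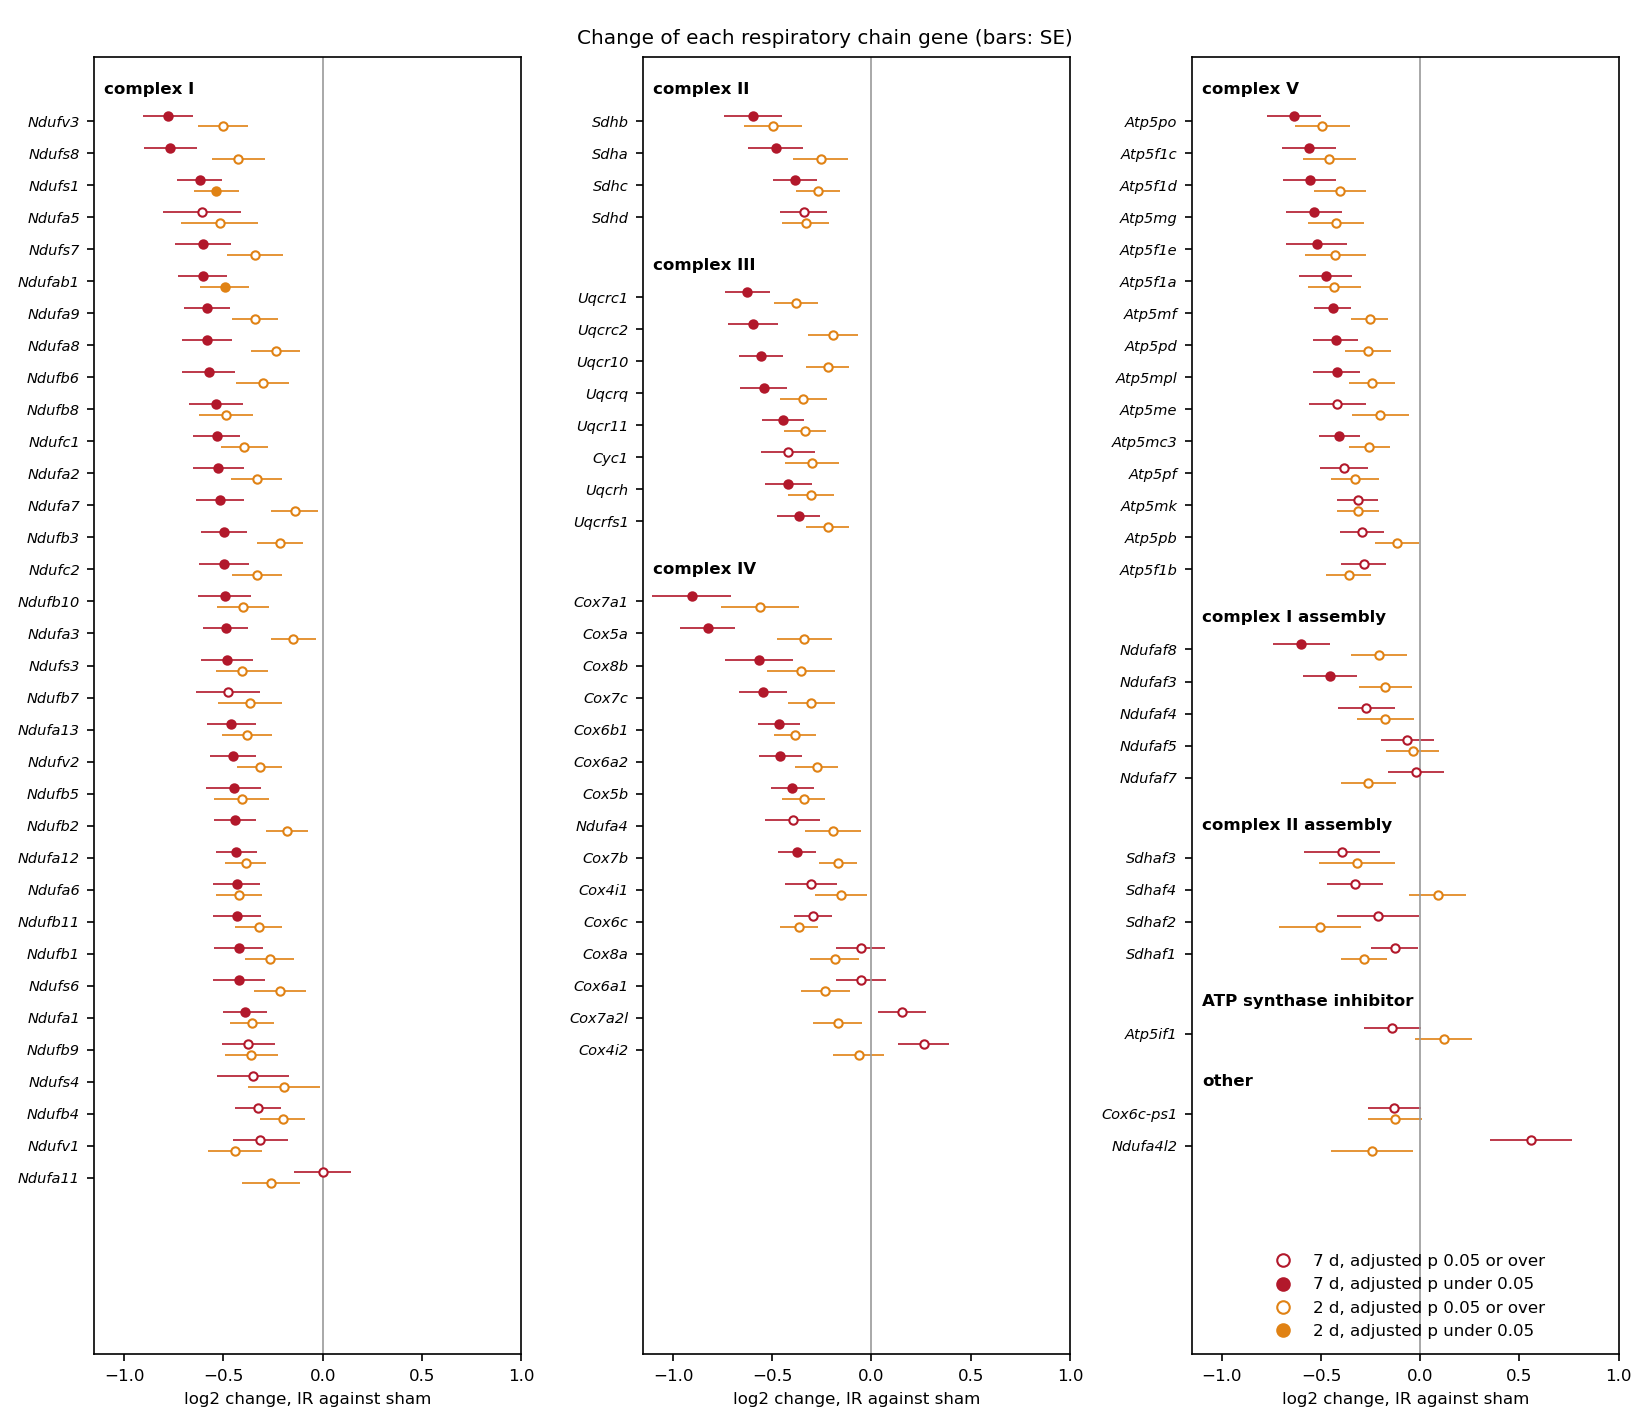
Log2 change of each of the 88 tested genes in IR against sham hearts with its SE, by complex, at 7 d (red) and 2 d (orange); filled points have an adjusted p under 0.05. Nearly all points lie left of 0 on both days, 57 are filled at 7 d and 2 at 2 d, and Ndufa11, Cox8a, Cox6a1, Cox7a2l, Cox4i2 and Ndufa4l2 are among the points near or right of 0 at 7 d.

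Among the 9 assembly factors, which help build the complexes and are not part of them, Ndufaf8 and Ndufaf3, both for complex I, fell at 7 d. Ndufaf8 read 2415, 2389 and 2767 in 7 d IR hearts, against 3265, 3877 and 4728 in 7 d sham hearts (log2 change -0.60, SE 0.14, adjusted p = 0.0178). Ndufaf3 read 2978, 3026 and 3020 in 7 d IR hearts, against 3953, 4478 and 4174 in 7 d sham hearts (log2 change -0.46, SE 0.13, adjusted p = 0.0408). In both genes the IR arrays were tightly grouped below the sham arrays. None of the 4 complex II assembly factors was called.

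No gene passed the test of the difference between the IR effects at 7 d and 2 d. By limma 0 of the 88 genes were called, against a background of 0.0095%, while 4 had an unadjusted p under 0.05 with a difference below 0, against 3.12% of all probe sets, and 1 above 0, against 4.03%. The median difference was -0.12, against -0.01 over all probe sets, and it lay below 0 in 76 of the 88. Leaving out 1 array moved this median between -0.23 and -0.06. The smallest adjusted p were those of Ndufa4l2 (difference 0.80, adjusted p = 0.566), Cox5a (-0.49, 0.608), Uqcrc2 (-0.40, 0.661), Ndufa7 (-0.38, 0.670) and Uqcr10 (-0.34, 0.678). Across the 88 genes the changes of the 7 d and the 2 d comparison, which share no arrays, had a Pearson r of 0.51 and a Spearman rho of 0.53. The genes of an array share its RNA and its scaling, so this is a description.

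Between the days, the IR hearts were lower at 7 d in 3 of the 88 genes, against a background of 0.997%. Ndufa7, an accessory subunit of complex I, read 13852, 14515 and 14163 in 7 d IR hearts, against 17953, 21470 and 21282 in 2 d IR hearts. Ndufa3, another accessory subunit, read 16642, 16657 and 15933 in 7 d IR hearts, against 20365, 23088 and 24434 in 2 d IR hearts. The groups were apart in both (log2 changes -0.50 and -0.46, SE 0.12 each, adjusted p = 0.0312 and 0.0424). Sdhaf4, which helps flavinated Sdha join Sdhb, read 1730, 1328 and 1540 in 7 d IR hearts, against 2259, 2457 and 2554 in 2 d IR hearts (log2 change -0.60, SE 0.14, adjusted p = 0.0295). Uqcrc1 and Ndufb2 came next, with -0.42 and -0.38 (adjusted p = 0.0591 and 0.0668).

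Between sham hearts of 7 d and 2 d limma called 0 of the 88 genes, against a background of 0.076% in either direction. Without adjustment 2 genes had a p under 0.05, both lower at 7 d, against 3.99% of all probe sets, namely Atp5f1a (log2 change -0.37, adjusted p = 0.394) and Ndufb5 (-0.31). The median over the 88 was -0.13, against 0.00 over all probe sets, and it ran from -0.19 to -0.04 when 1 array was left out.

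Lists of genes that serve the chain under other names held some that fell at 7 d, when 5.84% of all probe sets were called lower. Of 29 tested assembly factors with other names 10 fell, with a median of -0.31. Uqcc1, for complex III, fell by 0.81 (adjusted p = 0.00342), Ecsit, for complex I, by 0.67 (adjusted p = 0.0121), and Cox17, the copper carrier for complex IV, by 0.61 (adjusted p = 0.0117) on the log2 scale. At 2 d 0 of the 29 were called by limma, with 13 lower at an unadjusted p under 0.05, against 9.54% of all probe sets. Of 11 genes for ubiquinone synthesis and handling 5 fell, with a median of -0.48, led by Coq8a (-0.70, adjusted p = 0.0306), Coq10a (-0.64, 0.0246) and Coq9 (-0.63, 0.0109). Coq9 was also lower at 2 d (log2 change -0.54, adjusted p = 0.0431).

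Of 6 genes that feed ubiquinone by other routes 3 were called lower at 7 d, the electron-transfer flavoprotein subunits Etfa and Etfb and its dehydrogenase Etfdh, which together feed in electrons from fat oxidation. Etfdh had a mean signal of 5414 in 7 d IR hearts and 9999 in 7 d sham hearts (log2 change -0.85, adjusted p = 0.00999). Etfb had 10770 in 7 d IR hearts and 19330 in 7 d sham hearts (-0.82, adjusted p = 0.00876), and Etfa fell by 0.56 (adjusted p = 0.0117). The other donors were Gpd2, Dhodh and Sqor, with log2 changes of -0.02, -0.15 and 0.20 that did not pass.

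Of the transcription regulators of respiratory genes 4 were tested and 1 fell. Esrra, an oestrogen-related receptor, had 870.3 ± 195.2 in 7 d IR hearts and 1467 ± 376.8 in 7 d sham hearts (SD, n = 3 each), a log2 change of -0.64 (SE 0.19, adjusted p = 0.0460). It was also lower in 7 d IR than in 2 d IR hearts, where it had 1619 ± 418.5 (log2 change -0.76, adjusted p = 0.0430). Ppargc1a, Ppara and Yy1 did not pass the filter on dim probe sets. Of 9 genes for mitochondrial DNA upkeep and transcription Tefm (-0.53, adjusted p = 0.0288) and Lrpprc (-0.41, adjusted p = 0.0478) fell at 7 d. Of 7 outlets and carriers Vdac3, an outer membrane channel, and Slc25a4, the heart ADP/ATP carrier, fell by 0.44 and 0.40 (adjusted p = 0.0220 and 0.0249). Without rat 82 the counts were 1 of 29 assembly factors, 0 of 11 ubiquinone genes, 1 of 6 electron donors, 0 of 4 regulators, 0 of 9 mitochondrial DNA genes and 0 of 7 outlets. Over all probe sets 0.518% were called lower in that fit.

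Citric acid cycle and cardiomyocyte genes were also lower at 7 d, and macrophage and fibroblast markers were higher. Of 11 citric acid cycle genes 10 fell at 7 d (median -0.54), and of 19 cardiomyocyte and sarcomere genes 11 fell (median -0.42). Without rat 82 it was 3 of 11 and 1 of 19. The share of all probe sets called lower at 7 d was 5.84% with all arrays and 0.518% without rat 82. At 2 d limma called 0 of 11 (8 lower at an unadjusted p under 0.05) and 1 of 19, with medians of -0.29 and -0.30. Over all probe sets 0.589% were called lower at 2 d, and 9.54% were lower at an unadjusted p under 0.05. The mean of the 88 respiratory genes relative to the sarcomere list in the same array was 0.04 ± 0.03 log2 units in 7 d IR hearts and 0.00 ± 0.07 in 7 d sham hearts (SD, n = 3 each). At 2 d it was 0.04 ± 0.06 in IR hearts and 0.00 ± 0.04 in sham hearts. This difference between IR and sham hearts was not tested on either day. In whole-ventricle RNA, a change in the share of RNA that comes from cardiomyocytes and a change within cardiomyocytes cannot be told apart.

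Of 20 macrophage and monocyte genes 14 rose at 7 d and 12 at 2 d, with medians of 0.91 and 0.99. Over all probe sets 6.22% were called higher at 7 d and 1.88% at 2 d. Relative to the sham mean of the day, the list's mean ranged over 0.75 to 1.01 in 7 d IR hearts and -0.44 to 0.24 in 7 d sham hearts, and it was 1.39, 0.64 and 0.87 in the 2 d IR hearts 69, 73 and 76. Of 17 fibroblast genes 12 rose at 7 d and 0 at 2 d by limma (8 higher at an unadjusted p under 0.05, against 11.9% of all probe sets), with medians of 0.97 and 0.34. Without rat 82, 0 of 20 macrophage and 4 of 17 fibroblast genes were called at 7 d, and without rat 69 limma called 1 of 19 macrophage genes at 2 d. Over all probe sets 1.19% were called higher at 7 d without rat 82, and 1 of 10460 at 2 d without rat 69. The fibroblast list ranged over 0.87 to 1.03 in 7 d IR hearts and -0.55 to 0.29 in 7 d sham hearts. Rat 82, highest for the respiratory genes among 7 d sham hearts, was the lowest of them for both lists, and rat 69, lowest for the respiratory genes among 2 d IR hearts, was the highest of them for macrophage genes. The part these lists have in the lower respiratory signals was not tested.

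Of the remaining cell type lists 1 of 10 endothelial, 2 of 9 smooth muscle and pericyte, 1 of 2 neutrophil, 1 of 4 lymphocyte and 0 of 3 red blood cell genes were called in the upward direction at 7 d, where 6.22% of all probe sets were, and 0 of these without rat 82. None of these was called at 2 d by limma, where 2 neutrophil genes and 1 each of the endothelial and smooth muscle genes were higher at an unadjusted p under 0.05. Over all probe sets 11.9% were higher at that threshold. As a check of the tissue, the ventricular myosin light chain Myl2 had 51510 ± 3487 in 7 d IR hearts and 65030 ± 3218 in 7 d sham hearts, and 59300 ± 9222 in 2 d IR hearts and 65930 ± 6705 in 2 d sham hearts (SD, n = 3 each). The atrial light chain Myl7 had 1554 ± 1415 in 7 d IR hearts and 5260 ± 3855 in 7 d sham hearts, and of 5 atrial genes 2 were called lower at 7 d (0 without rat 82). A ratio of the 3′ to the 5′ probe sets of beta-actin, a sign of RNA integrity, also differed at 7 d, with log2 values of 0.18 ± 0.06 in IR hearts and 0.58 ± 0.23 in sham hearts. At 2 d it was 0.24 ± 0.07 in IR hearts and 0.20 ± 0.10 in sham hearts. The same log2 ratio of GAPDH overlapped at 7 d, with 0.28 to 0.38 in IR hearts and 0.31 to 0.44 in sham hearts. That of hexokinase overlapped at 7 d as well, with 0.71 to 1.0 in IR hearts and 0.76 to 1.21 in sham hearts. The part of atrial tissue and of RNA integrity in the 7 d changes was not tested.

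**Figure D4:**
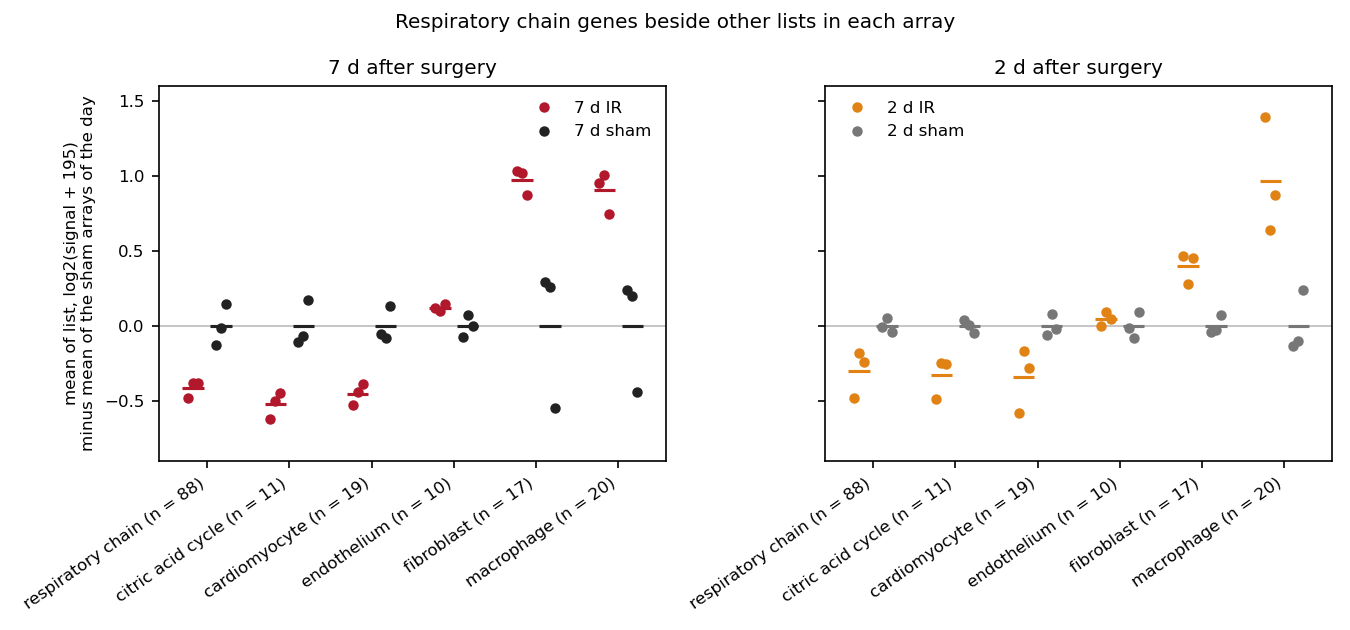
Mean log2(signal + 195) of the 88 respiratory genes and of 5 other lists in each array, minus the mean of the sham arrays of the same day, at 7 d (left) and 2 d (right); points are arrays and lines group means. Respiratory, citric acid cycle and cardiomyocyte lists lie lower in IR hearts, and fibroblast and macrophage lists higher.

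How many genes passed the test hung on single arrays, while the direction did not. At 7 d the count of 57 fell to 5 without sham rat 82, to 18 without IR rat 44 and to 30 without IR rat 47, and it was 66 without the 2 d IR rat 69, which is not part of that comparison but adds to the shared variance. Over all probe sets the share called lower was 0.518% without rat 82, 1.88% without rat 44, 2.29% without rat 47 and 6.68% without rat 69, against 5.84% with all arrays. The 5 genes called in each of the 12 fits that left out 1 array were Ndufs1, Ndufs8, Ndufv3, Uqcrc1 and Cox5a. Without rat 82 the median 7 d change of the 88 genes was -0.38.

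At 2 d the count of 2 was 0 without any one of rats 69, 76, 71, 72 and 74, 15 without rat 73 and 10 without rat 82, and the median was -0.22 without rat 69. Over all probe sets 62 of 10527 were called lower at 2 d with all arrays, and 1 of 10460 without rat 69, 42 of 10457 without rat 76, 1 of 10433 without rat 71, 1 of 10426 without rat 72, 11 of 10442 without rat 74, 159 of 10437 without rat 73 and 160 of 10422 without rat 82. Between 7 d and 2 d IR hearts the count of 3 was 0 without rat 73, 76 or 48 and 12 without rat 69, where the share over all probe sets was 0.383%, 0.421%, 0.430% and 1.40%.

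**Figure D5:**
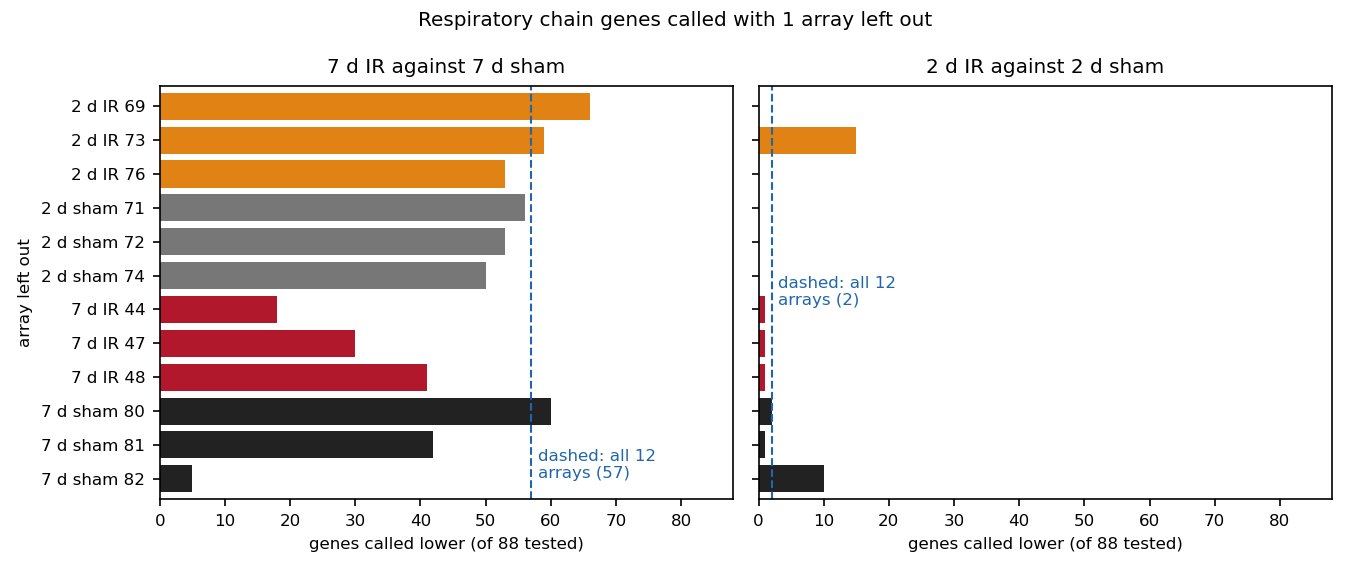
Number of the 88 genes called lower in IR hearts when 1 array is left out of the fit, at 7 d (left) and 2 d (right); bars are coloured by the group of the left-out array and the dashed line is the count with all 12 arrays. At 7 d the count runs from 5 without sham rat 82 to 66, and at 2 d from 0 to 15.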

How the data were processed

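Signal intensities of 12 one-colour rat arrays were used as the authors deposited them, made with MAS5 per the submitters' processing notes. MAS5 gives 1 intensity for each probe set; trimmed means (2% off each end) of 1500.4 to 1500.5 show that the arrays were scaled to 1 level. Array medians were 637.3 to 719 and signals 0.4 to 90742.8; 3 arrays a group limit the precision. From 15923 probe sets 57 controls were dropped, and 10527 were tested, those that exceeded the 40th percentile of an array in 3 or more arrays. Log2(signal + 195), where 195 is the rounded median over arrays of the 20th percentile of signal, was fitted in limma 3.58.1 (R 4.3.3) with 4 group means, moderated variances with an intensity trend, and Benjamini-Hochberg adjustment. Such fold changes understate dim genes. The steps were tested on simulated data.

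The genes, lists and tests were chosen with earlier results of these data known. Named were, per complex and day, the 4 called genes of largest change (else of lowest adjusted p), the complex I core, all of complex II, isoform pairs, the 5 genes of lowest adjusted p in other comparisons, up to 3 per list, and genes not tested; further names were chosen after their values were seen. Symbols are those of the platform annotation, and all 89 gene IDs were found in RefSeq. Alternatives were median centring, quantile normalisation, pseudocounts of 50 and 500, no filter, no trend, array weights, pooled sham arrays, the dimmer probe set, Ndufa4 with complex I, and leaving out arrays; several-gene probe sets were added after seeing the data. Isoform differences were tested by exact permutation in scipy 1.17.1.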

Additional observations from a re-analysis of the deposited data

Results flagged for a closer look

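In 2 of the tested genes every IR array at 7 d lay on one side of the day's sham mean and every IR array at 2 d on the other. The share of all probe sets with this pattern is not given here, so the pattern is only a description of these 2 genes. Ndufa4l2 lay 0.25, 0.65 and 0.78 log2 units above the sham mean in the 7 d IR hearts, and -0.30, -0.23 and -0.21 from it in the 2 d IR hearts. The difference of the 2 effects was 0.80, and the test of that difference did not pass (limma, adjusted p = 0.566). Cox4i2 lay 0.13, 0.23 and 0.42 above the sham mean in the 7 d IR hearts, and -0.15, -0.03 and -0.01 from it in the 2 d IR hearts. Its difference of effects was 0.33 (limma, adjusted p = 0.755). Neither was called on either day.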

How the results depend on the processing

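The limits are those of 3 arrays a group. Below-zero changes held in 81 to 85 of the 88 genes at 7 d and 83 to 87 at 2 d under all settings, while the counts of calls did not hold. Called at 7 d were 35 genes with no filter, 33 with no intensity trend and 28 without rats 69 and 82 together, against 57. Over all probe sets 442 of 15866, 421 of 10527 and 247 of 10345 were called lower in these 3 fits, against 615 of 10527. Of the 57 genes, 26 were called in all 9 other refits of the whole table. Called at 2 d, against 2, were 4 after median centring, 1 after quantile normalisation, 0 with no filter, 0 with no trend, 6 with array weights and 0 without rats 69 and 82. In the same order, 104, 45, 13, 8, 111 and 7 of all probe sets were called lower, against 62. The tested probe sets numbered 10527, but 15866 with no filter and 10345 without rats 69 and 82. Lower in 7 d than in 2 d IR hearts, against 3, were 6 after quantile normalisation, 1 with no filter, 1 with no trend, 14 with array weights and 25 without rats 69 and 82. In that order, 130, 52, 51, 236 and 235 of all probe sets were called lower at 7 d, against 105. Leaving out 1 array gave 5 to 66 calls at 7 d, 0 to 15 at 2 d and 0 to 12 between the IR days. Over all probe sets 54 to 699 were called lower at 7 d and 1 to 160 at 2 d in these fits. Between the IR days 40 of all probe sets were called lower without rat 73 and 147 without rat 69. Quantile normalisation shrank the medians: at 7 d to -0.34 in complex III, -0.20 in complex IV, -0.29 in complex V and -0.31 over all 88 genes, and at 2 d to -0.14 in each of complexes II, III, IV and V and -0.18 over all. It moved the Cox6a2 minus Cox6a1 difference to -0.25 at 7 d and 0.16 at 2 d. The complex IV median of the difference of effects ran from -0.213 to -0.0454 over the left-out arrays, the nearest to 0 without rat 82. Small changes turned sign: Cox6a1 at 7 d (0.018 after quantile normalisation, 0.0064 with array weights, 0.0729 without rat 82 and 0.0729 without rats 69 and 82), Cox8a at 7 d (0.104 after quantile normalisation, and -0.126 to 0.0804 over the left-out arrays, the highest without rat 44) and Cox4i1 at 2 d (0.0527 after quantile normalisation). The causes were not tested. For named genes 1408 further values kept direction and call, 38 gained and 111 lost a call. No paired analysis was possible because the groups share no replicate numbers. The numbers of the 7 d IR rats all lie below those of the 7 d sham rats, while the 2 d IR and sham numbers interleave. The labels do not say whether the numbers follow an order of work. An effect of such an order at 7 d could not be told apart from that of IR.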

Other observations

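Some respiratory genes were read by probe sets that the annotation gives to more than 1 gene, and those were left out of the counts above. At 7 d, IR against sham, the probe set of Cycs (cytochrome c) with Cycs-ps9 and Cycsl1 had a log2 change of -0.46 (adjusted p = 0.0397), and a second one of -0.33 (adjusted p = 0.0957). Those holding Ndufa10 (-0.62, adjusted p = 0.00946), Ndufs5 (-0.43, 0.0374), Uqcrb (-0.41, 0.0191), Cox7a2 (-0.39, 0.0270) and Atp5mc1 (-0.35, 0.0466) were also lower, and that of Atp5mc2 had -0.36 (adjusted p = 0.0828). Which of the annotated genes gave the signal cannot be told apart. Ssbp1, which binds single-stranded mitochondrial DNA, was lower in 7 d IR than in 2 d IR hearts (mean signals 880.4 and 1344, log2 change -0.52, adjusted p = 0.0416).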
